A study of Arabidopsis thaliana with 4 samples.

Results

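Transcripts of nitric oxide and nitrate metabolism were described in Arabidopsis rosettes for 8 genes. These were the phytoglobins PGB1 (AT2G16060), PGB2 (AT3G10520) and PGB3 (AT4G32690), the nitrate reductases NIA1 (AT1G77760) and NIA2 (AT1G37130), the nitrite reductase NIR1 (AT2G15620), and the nitrate transporters NRT1.1 (AT1G12110) and NRT2.1 (AT1G08090). The phytoglobins are listed as HB1, HB2 and GLB3 in RefSeq. The genes were found by locus identifier, and all 8 had a probe set among the 27826 on the array. There were 4 arrays. Of these, 2 carried the label 35S:∆13RAP2.12, which stands for RAP2.12 shortened at one end and driven by the viral 35S promoter, which works in nearly all plant tissues. The other 2 were wild-type Columbia-0 (Col-0), the ecotype that all 4 arrays share. All rosettes were 4 weeks old and were taken 10 h after lights came on. They came from days of 12 h light at 22 °C with nights of 12 h at 18 °C. Stratification, a cold treatment of seeds, was for 2 days at 4 °C for all 4 arrays. The labels do not say how many transgenic lines were used, or whether replicates were different plants, so the p-values reflect the spread among these arrays alone, which may be technical. The series describes more arrays than the 4 used here. The number of arrays limits the precision of every value.

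RAP2.12 belongs to the ERF-VII transcription factors, which switch on genes for life at low oxygen. Its amino terminus marks it for breakdown when oxygen and nitric oxide are present, so a form without that terminus is expected to last in air. Phytoglobins are plant haemoglobins that bind oxygen tightly, and the oxygenated protein turns nitric oxide into nitrate. Nitrate reductase makes nitrite from nitrate in the cytosol and can also make nitric oxide from nitrite when oxygen is scarce. With phytoglobin, this forms a cycle known from plants short of oxygen. In ordinary assimilation, nitrite moves on to the plastid, where nitrite reductase makes ammonium.

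Levels are RMA values on the log2 scale, in which a step of 1 is a doubling. Changes are the mean of the arrays labelled 35S:∆13RAP2.12 minus the mean of the Col-0 arrays, tested with limma and adjusted over all probe sets by the Benjamini-Hochberg method. A gene is said to have risen or fallen at an adjusted p below 0.05. Arrays of 1 group correlated at Pearson's r = 0.993 across probe sets (not independent points), and arrays of different groups at 0.978 to 0.980. RAP2.12 itself had levels of 11.28 and 11.06 on arrays labelled 35S:∆13RAP2.12, against 11.07 and 11.16 on the Col-0 arrays, and its change of 0.06 (95% interval -0.30 to 0.41) did not pass (limma adjusted p = 0.879). Its level did not bear out the label. Where on the transcript its probes lie was not known here. Of 9 known low-oxygen genes, all 9 rose, by 2.98 to 5.13, where 1.74% of all probe sets rose. Among the 9 were the fermentation genes ADH1 at 3.23 (limma adjusted p = 0.0209) and PDC1 at 5.13 (limma adjusted p = 0.00277). The mean Col-0 level of PDC1, 4.73, lay in the lowest 25% of all probe sets, so the size of its increase is not well determined. With either Col-0 array left out, most or all of these 9 no longer passed. Nearly all calls over all probe sets were lost in the same fits, so this loss is not particular to the 9 genes. That list was written with earlier results of these data known.

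Among the 8 genes, PGB1 and NIA1 rose, none fell, and 6 did not pass. Over all probe sets, 1.74% rose and 0.424% fell. At an unadjusted p below 0.05, 5 of the 8 were higher and 1 lower, against 7.85% and 8.38% of all probe sets. The arrays of the 2 groups did not overlap for 5 genes that were higher (PGB1, PGB3, NIA1, NIA2 and NRT1.1) and for 1 that was lower (PGB2), where 19.5% and 29.1% of all probe sets did so. The median change of the 8 genes was 0.63, beside -0.04 over all probe sets. The 8 genes were chosen with earlier results of these data known, so these counts and the median are no separate support.

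**Figure D1:**
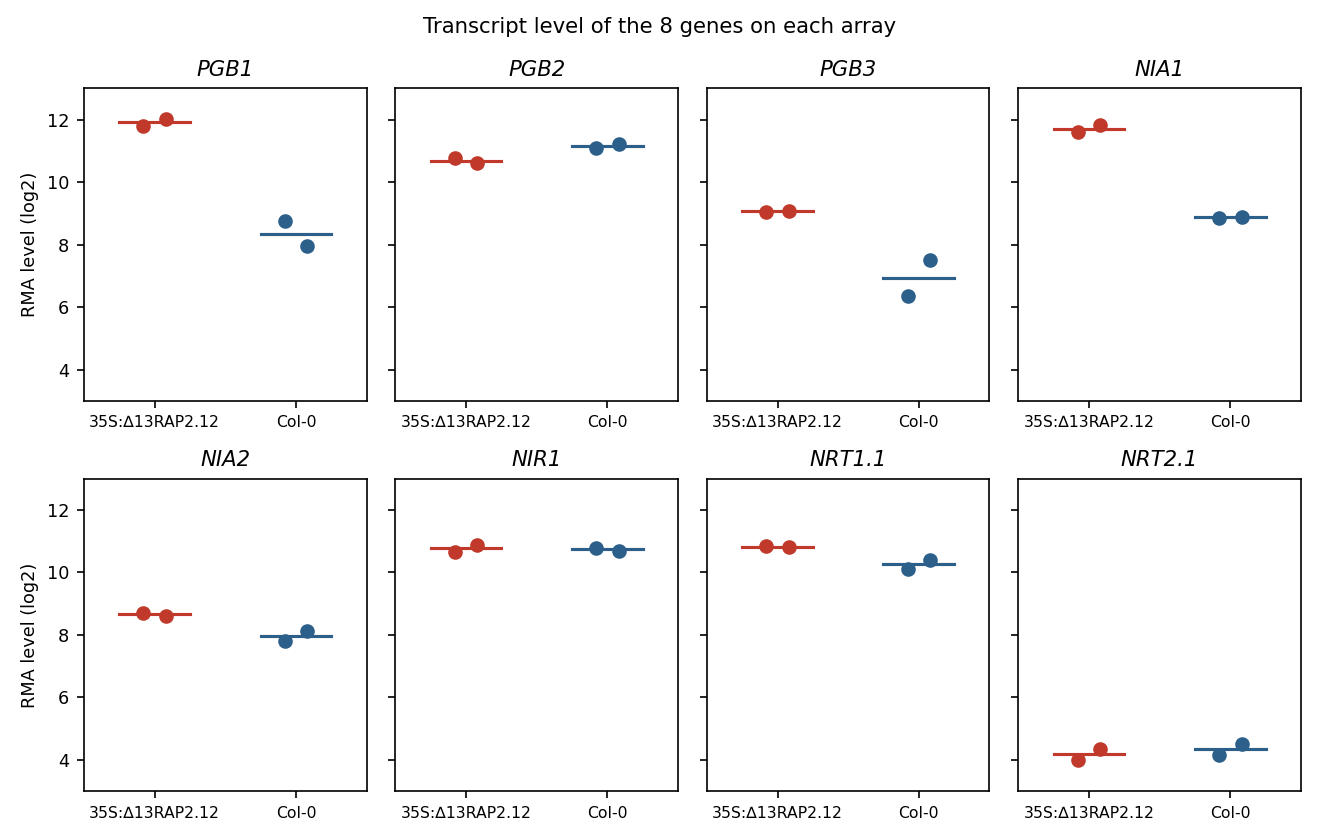
Level of each of the 8 genes on each array (vertical axis, RMA level on the log2 scale), with a point per array and a line at the group mean, for the arrays labelled 35S:∆13RAP2.12 (left, red) and Col-0 (right, blue). PGB1 and NIA1 lie near 12 on arrays labelled 35S:∆13RAP2.12, with means of 11.92 and 11.71, and below 9 on the Col-0 arrays, and the Col-0 points of PGB1 and PGB3 lie far apart.

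PGB1 is the class 1 phytoglobin, the member known to be induced by low oxygen and by nitrate. It had levels of 11.80 and 12.03 on arrays labelled 35S:∆13RAP2.12, against 8.75 and 7.94 on the Col-0 arrays. Both arrays labelled 35S:∆13RAP2.12 were thus high and close together, and the Col-0 arrays were low and further apart. The means were 11.92 ± 0.16 for 35S:∆13RAP2.12 and 8.35 ± 0.57 for Col-0 (SD, n = 2 each). PGB1 rose by 3.57 (SE 0.30, 95% interval 2.77 to 4.36, limma adjusted p = 0.0160), which is 11.9-fold with an interval of 6.84 to 20.6. This was number 86 of 27826 by size of increase. In whole rosettes, more RNA per cell and more cells that hold the transcript cannot be told apart, here and for every change below.

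PGB3 is the truncated haemoglobin of the family, a form related to bacterial globins. Its levels were 9.04 and 9.08 on arrays labelled 35S:∆13RAP2.12, against 6.34 and 7.51 on the Col-0 arrays. The groups did not overlap, but the Col-0 arrays differed from each other by more than for nearly any other gene: their SD of 0.83 lay at percentile 99.1 of all probe sets, while the SD of 0.03 for 35S:∆13RAP2.12 lay at percentile 16.9. The change of 2.14 (SE 0.40, 95% interval 1.07 to 3.21), 4.40-fold, did not pass (adjusted p = 0.0987). Among all probe sets it was number 266 by size of increase. When the prior variance was allowed to follow the level (eBayes with an intensity trend), PGB3 passed (adjusted p = 0.00607).

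PGB2, the class 2 phytoglobin, is known to respond to cold and cytokinin rather than to low oxygen. It had levels of 10.77 and 10.60 on arrays labelled 35S:∆13RAP2.12, against 11.07 and 11.22 on the Col-0 arrays. It was the one gene of the 8 whose arrays labelled 35S:∆13RAP2.12 both lay below both Col-0 arrays. The change of -0.46 (SE 0.13, 95% interval -0.81 to -0.11) did not pass (adjusted p = 0.208), but passed with the intensity trend (adjusted p = 0.0220).

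NIA1 and NIA2 encode the nitrate reductases, and NIA2 is known to give most of the enzyme's activity in leaves. NIA1 had levels of 11.59 and 11.83 on arrays labelled 35S:∆13RAP2.12, against 8.86 and 8.90 on the Col-0 arrays. The Col-0 arrays nearly coincided, with an SD of 0.02 at percentile 10.7 of all probe sets. NIA1 rose by 2.83 (SE 0.14, 95% interval 2.47 to 3.19, adjusted p = 0.00497), 7.11-fold with an interval of 5.54 to 9.13, and was number 156 by size of increase. In the fit on all 4 arrays its SE was below the 0.30 of PGB1, whose Col-0 SD was 0.57. Both errors rest on 2 arrays per group and are themselves poorly known.

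NIA2 had levels of 8.71 and 8.61 on arrays labelled 35S:∆13RAP2.12, against 7.80 and 8.12 on the Col-0 arrays. Both arrays labelled 35S:∆13RAP2.12 were above both Col-0 arrays, by less than for NIA1. The change of 0.70 (SE 0.16, 95% interval 0.29 to 1.12), 1.63-fold, did not pass (adjusted p = 0.137) and passed with the intensity trend (adjusted p = 0.0451). The 2 genes are close relatives, and how far a probe set of one also reads the other was not known here.

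NIR1, the single nitrite reductase gene, takes up the product of both NIA enzymes. Its levels were 10.66 and 10.89 on arrays labelled 35S:∆13RAP2.12, against 10.79 and 10.67 on the Col-0 arrays. The groups overlapped, and the change of 0.04 (SE 0.14, adjusted p = 0.914) had a 95% interval of -0.32 to 0.41, which reaches at most 1.33-fold upwards. That bound lies below the lower bound of 5.54-fold for NIA1.

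NRT1.1 is a plasma membrane nitrate transporter that works at low and high nitrate and also acts as a nitrate sensor. It had levels of 10.84 and 10.80 on arrays labelled 35S:∆13RAP2.12, against 10.12 and 10.40 on the Col-0 arrays. Both arrays labelled 35S:∆13RAP2.12 were higher, and the change of 0.56 (SE 0.14, 95% interval 0.18 to 0.94), 1.47-fold, did not pass (adjusted p = 0.175), while it passed with the intensity trend (adjusted p = 0.0170).

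NRT2.1 is the main high-affinity nitrate transporter of roots. On the rosette arrays labelled 35S:∆13RAP2.12 it had levels of 4.01 and 4.36, against 4.18 and 4.52 on the Col-0 arrays. These groups overlapped, and both means lay in the lowest 25% of all probe sets, which ended at 4.82 for 35S:∆13RAP2.12 and 4.76 for Col-0. No detection calls were used, so the signal cannot be set against background, and its change of -0.16 (adjusted p = 0.749) says little about the transcript.

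**Figure D2:**
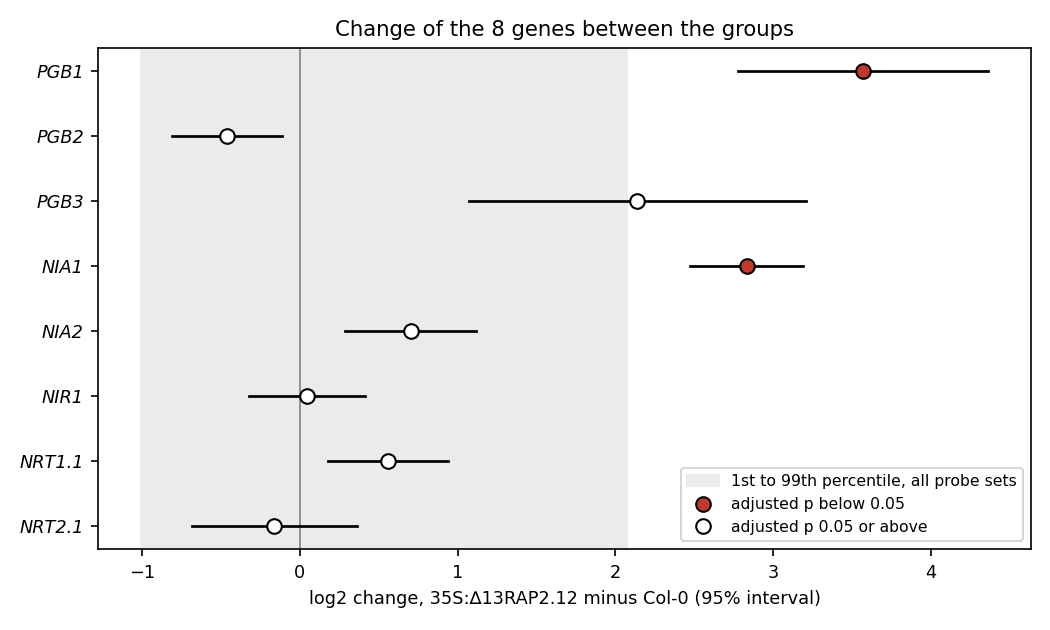
Change of each gene (horizontal axis, log2, 35S:∆13RAP2.12 minus Col-0) with its 95% interval, filled where the adjusted p is below 0.05, over a grey band from the 1st to the 99th percentile of the changes of all probe sets, -1.01 to 2.07. PGB1 at 3.57 and NIA1 at 2.83 lie beyond the band with their whole intervals, PGB3 at 2.14 lies just beyond it with an interval that reaches into it, and the other 5 lie inside.

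Genes with a like role were compared in pairs by an exact permutation test, which with 2 arrays against 2 cannot establish that their changes differ. For each of 4 pairs, the difference between the 2 genes' levels was taken on every array, so that only its shift between groups is read. PGB1 minus PGB2 was 1.03 and 1.43 on arrays labelled 35S:∆13RAP2.12, against -2.32 and -3.27 on the Col-0 arrays, a shift of 4.03. NIA1 minus NIA2 was 2.88 and 3.22 on arrays labelled 35S:∆13RAP2.12, against 1.07 and 0.78 on the Col-0 arrays, a shift of 2.13. In both pairs the gap between the groups was larger than the spread within either.

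PGB1 minus PGB3 was 2.76 and 2.95 on arrays labelled 35S:∆13RAP2.12, against 2.41 and 0.43 on the Col-0 arrays. That shift of 1.43 was close to the SD of 1.40 between the Col-0 arrays, and it was 0.44 without Col-0 replicate 2 and 2.42 without Col-0 replicate 1. The transporters NRT2.1 minus NRT1.1 gave -6.83 and -6.43 on arrays labelled 35S:∆13RAP2.12, against -5.94 and -5.88 on the Col-0 arrays, a shift of -0.72 that includes the weak signal of NRT2.1. In each of the 4 pairs the groups did not overlap. Among single probe sets, 48.6% did not overlap in either direction. The share over other pairs of genes was not counted, so nothing is read from this count. The two-sided exact permutation test over the arrays gave p = 0.333 for every pair (0.333 also after adjustment over the 4 pairs). That is the smallest value it can give with 2 arrays against 2, so this test cannot reach 0.05 here.

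**Figure D3:**
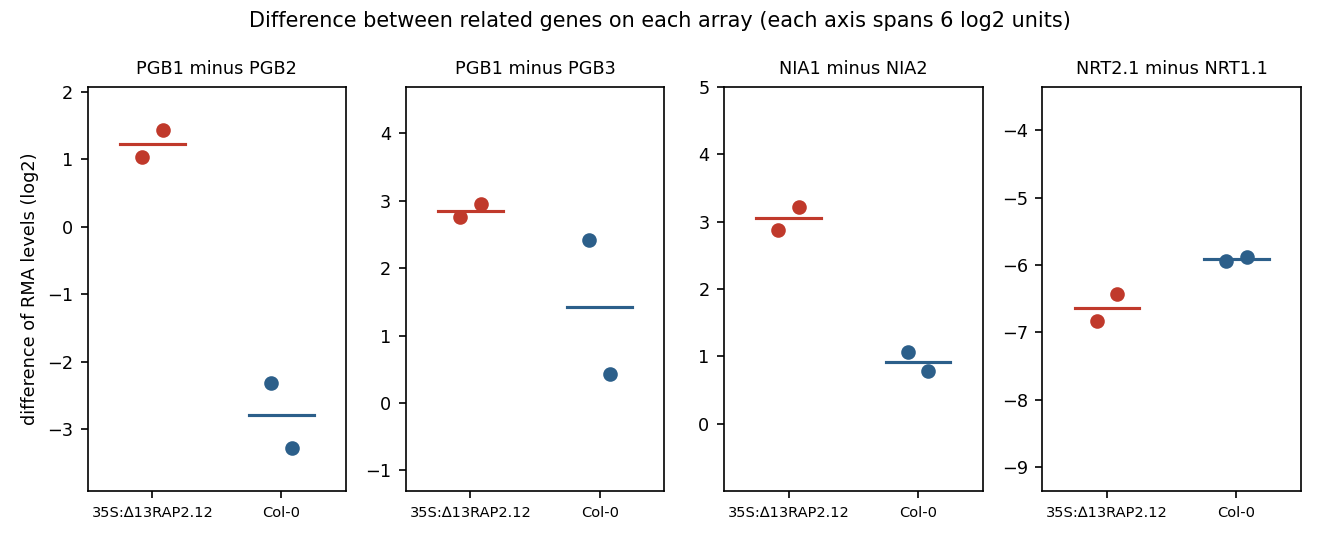
Difference between the levels of the 2 genes of each pair on each array (vertical axis, log2). Points are arrays and lines are group means, for the arrays labelled 35S:∆13RAP2.12 (left, red) and Col-0 (right, blue). The shift between groups was 4.03 for PGB1 minus PGB2 and 2.13 for NIA1 minus NIA2, while the Col-0 points of PGB1 minus PGB3 lie at 2.41 and 0.43.

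A fit with any 1 array left out, of either group, has 1 residual degree of freedom. Nearly all calls over all probe sets were lost without either Col-0 array, so the lost calls are not particular to PGB1 and NIA1. Without Col-0 replicate 1, PGB1 had a change of 3.97 (adjusted p = 0.0663) and NIA1 of 2.81 (adjusted p = 0.0991), so that 0 of the 8 genes passed. Without Col-0 replicate 2, the changes were 3.16 for PGB1 (adjusted p = 0.0872) and 2.85 for NIA1 (adjusted p = 0.102), again with 0 of 8. In those 2 fits, 0 and 29 of the 27826 probe sets passed. With either array labelled 35S:∆13RAP2.12 left out, both genes passed, with adjusted p from 0.0149 to 0.0461. The change of PGB3 was 1.55 without Col-0 replicate 1 and 2.72 without Col-0 replicate 2.

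The 2 Col-0 arrays differed in opposite directions for the 2 phytoglobins. Replicate 1 had more PGB1 than replicate 2 and less PGB3. Of the 9 low-oxygen genes, 6 were higher on Col-0 replicate 1, ADH1 among them, and 3 on Col-0 replicate 2, PDC1 among them. The share of all probe sets higher on Col-0 replicate 1 was not counted, so nothing is read from this split. The part of the difference between the Col-0 arrays in the results was not tested.

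**Figure D4:**
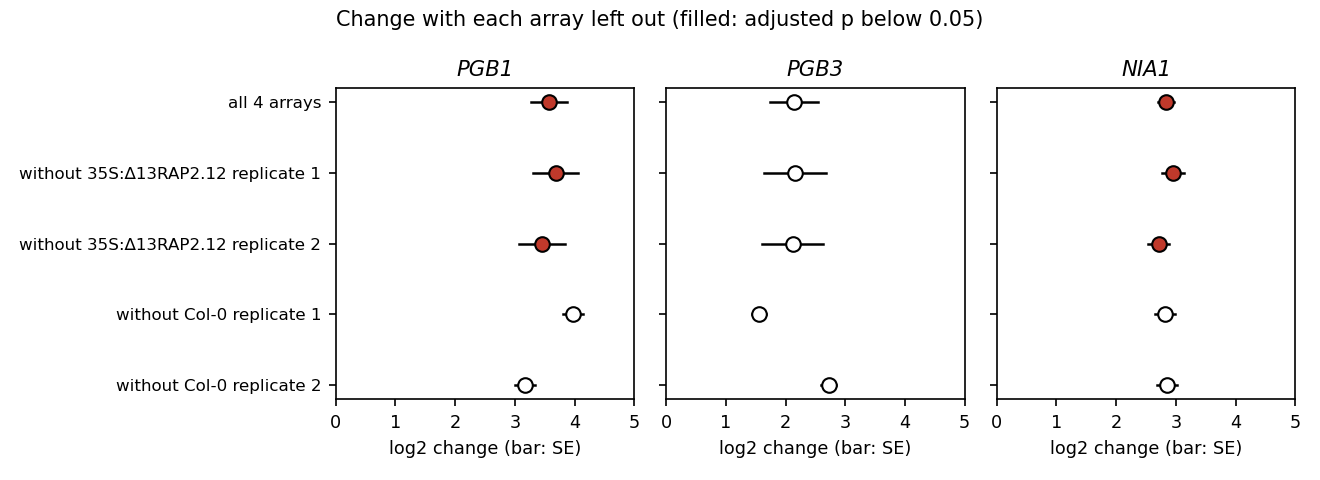
Change of PGB1, PGB3 and NIA1 (horizontal axis, log2, 35S:∆13RAP2.12 minus Col-0, bars are the moderated standard error) with all 4 arrays and with each array left out, filled where the adjusted p is below 0.05. NIA1 stays between 2.71 and 2.95, PGB1 between 3.16 and 3.97 and PGB3 between 1.55 and 2.72, and no point is filled without either Col-0 array.

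With the intensity trend, 5 of the 8 genes were called higher (PGB1, PGB3, NIA1, NIA2 and NRT1.1) and 1 lower (PGB2), where 3.74% and 2.58% of all probe sets were. NIR1 and NRT2.1 did not pass in that fit either, with adjusted p of 0.883 and 0.822.

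Other genes of nitrogen metabolism were counted in 6 lists. Of their 84 genes, 1 rose and 0 fell by limma, where 1.74% and 0.424% of all probe sets did. At an unadjusted p below 0.05, 6 were higher and 5 lower, beside 7.85% and 8.38% of all probe sets. With the intensity trend 2 were called higher and 2 lower, beside 3.74% and 2.58%. These counts are near the shares over all probe sets, so nothing is read from them about the lists. The median change of the 84 genes was -0.04, beside -0.04 over all probe sets.

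Of 28 regulators of the nitrate response, ANR1 rose. ANR1, also named AGL44, is a MADS-box factor known for its part in lateral root growth towards nitrate. It had levels of 6.16 and 6.63 on arrays labelled 35S:∆13RAP2.12, against 3.35 and 2.95 on the Col-0 arrays, a change of 3.25 (SE 0.23, adjusted p = 0.0105). Its Col-0 level fell in the bottom 25% of the array's values, so the size of this increase is not well determined. ANR1 did not pass without Col-0 replicate 1 (3.44, adjusted p = 0.115) or without Col-0 replicate 2 (3.05, adjusted p = 0.127). NLP7, the nitrate-binding factor that drives NIA1, NIR1 and NRT2.1 in response to nitrate, had a change of 0.06 (adjusted p = 0.856), and was named after its values were seen. The list had a median of -0.02, and BT2, a nitrate-induced BTB protein named after its values were seen, passed with the intensity trend (0.45, adjusted p = 0.0329).

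Of 19 other genes of nitrate transport, 0 passed. NRT1.11, which moves nitrate towards growing leaves, had the smallest p. It had levels of 9.00 and 9.32 on arrays labelled 35S:∆13RAP2.12, against 10.11 and 10.03 on the Col-0 arrays, a change of -0.91 (adjusted p = 0.0819) that passed with the intensity trend (adjusted p = 0.00435). At an unadjusted p below 0.05, 2 of the 19 were higher and 3 lower, and the median was 0.05. The largest difference in the list was that of NRT1.8, a transporter that takes nitrate out of the xylem, named after its values were seen: 7.64 and 6.09 on arrays labelled 35S:∆13RAP2.12, against 4.94 and 5.15 on the Col-0 arrays. Its change of 1.82 did not pass (adjusted p = 0.212), and the arrays labelled 35S:∆13RAP2.12 lay far apart. Without replicate 2 of those arrays NRT1.8 passed, at 2.59 (adjusted p = 0.0196).

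Of 15 genes of ammonium assimilation, which take up the product of NIR1, 0 passed, with 1 higher and 2 lower at an unadjusted p below 0.05 and a median of -0.13. The glutamine synthetase GLN1;4 had the smallest p, with a change of -0.93 (adjusted p = 0.0743), and was called lower with the intensity trend (adjusted p = 0.0444). GLN2, the plastid glutamine synthetase that handles most leaf ammonium, had a change of -0.12 (adjusted p = 0.701) and was named after its values were seen.

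The 9 genes that supply reductant and the siroheme of nitrite reductase included none that passed by limma, also at an unadjusted p below 0.05 and with the intensity trend. UPM1, of siroheme synthesis, had the smallest p at 0.31 (adjusted p = 0.374). The same counts of 0 held for the 9 genes of the molybdenum cofactor, which nitrate reductase needs, where MOT2, of molybdate transport, had the smallest p at -0.33 (adjusted p = 0.352). They also held for 4 other genes of nitric oxide metabolism, where AT1G30910 had the smallest p at -0.14 (adjusted p = 0.644). GSNOR1, which breaks down S-nitrosoglutathione, the main store of nitric oxide, had a change of -0.15 (adjusted p = 0.653) and was named after its values were seen. The medians of these 3 lists were -0.09, -0.09 and -0.10.

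**Figure D5:**
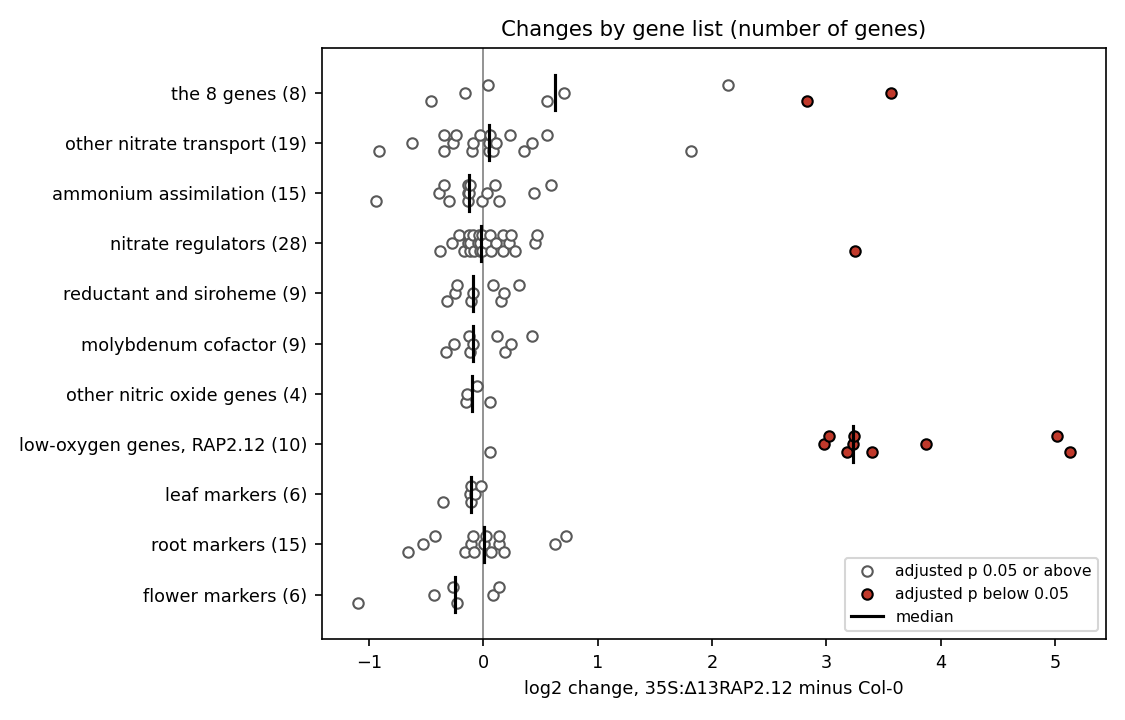
Change of every gene (horizontal axis, log2, 35S:∆13RAP2.12 minus Col-0) by list, with the number of genes in brackets, a line at the median and filled points where the adjusted p is below 0.05. In the 6 lists of nitrogen and nitric oxide metabolism the only filled point is ANR1 at 3.25, while the 9 low-oxygen genes lie between 2.98 and 5.13 and RAP2.12 at 0.06.

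The tissue label was set against marker genes, since the protocol speaks of RNA from whole plants and NRT2.1 is known mainly from roots. All 6 leaf markers had levels above 10 on every array, and 0 of 6 passed by limma, also at an unadjusted p below 0.05. The median was -0.11, and all 6 changes were negative, as were 16014 over all 27826 probe sets. For 5 of the 6 the groups did not overlap and Col-0 was higher, where 29.1% of all probe sets did so. Their summed linear levels were 26474.5 and 26471.4 on arrays labelled 35S:∆13RAP2.12, against 28297.2 and 28134.3 on the Col-0 arrays. PRK, a Calvin cycle kinase, had the smallest p at -0.35 (adjusted p = 0.434). Of 15 root markers, 11 lay in that lowest 25% in both groups, among them the root hair genes RHD6 and EXPA7 and the iron transporter IRT1, these 3 named after their values were seen.

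None of the root markers passed by limma, with 2 higher and 0 lower at an unadjusted p below 0.05. AHA7, a proton pump, had the smallest p at 0.63 (adjusted p = 0.0911). PYK10, a glucosidase abundant in roots and named after its values were seen, had levels of 11.05 and 11.17 on arrays labelled 35S:∆13RAP2.12, against 10.51 and 10.28 on the Col-0 arrays. Its change of 0.72 did not pass (adjusted p = 0.102) and passed with the intensity trend (adjusted p = 0.00363). Summed on the linear scale, the 15 root markers came to 2520 and 2746 on arrays labelled 35S:∆13RAP2.12, against 1833 and 1623 on the Col-0 arrays, most of it PYK10. Of 6 flower markers, 5 lay there in both groups and 0 passed by limma, with AG lower at an unadjusted p below 0.05. AG, the floral regulator AGAMOUS, had a change of -1.10 (adjusted p = 0.0690), and passed with the intensity trend, the low-level filter and a second quantile normalization (adjusted p = 0.0456, 0.0432 and 0.0443). The summed flower markers were 134 and 124 on arrays labelled 35S:∆13RAP2.12, against 169 and 196 on the Col-0 arrays. The part of these marker differences in the changes of the 8 genes was not tested.

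The genes with the profiles most like those of PGB1 and NIA1 over the 4 arrays were found by Euclidean distance between log2 profiles, each centred on its own mean. With 2 groups of 2 arrays, such likeness holds little beyond the size of the change and the spread within each group. For PGB1 the nearest were AT2G07042 at a distance of 0.253, the basic chitinase HCHIB (AT3G12500), a defence gene, at 0.305, and AT5G65207 at 0.319. Like PGB1, each of these 3 genes was higher on Col-0 replicate 1 than on Col-0 replicate 2. Choosing them by nearness on the same arrays had set this order, so it is no separate result. For NIA1 the nearest were ARAC9 (AT2G44690), a small GTPase of the ROP family, at 0.0952, AT5G01740 at 0.167 and AT4G15120 at 0.169. Changes in these 6 genes ran from 2.77 for ARAC9 to 3.67 for AT5G65207.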

How the data were processed

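The deposited values were log2 expression values made with RMA, per the submitters' processing notes, from Affymetrix Arabidopsis arrays hybridised with biotin-labelled total RNA. RMA subtracts background, makes the arrays' distributions alike by quantiles and combines the probes of a set. For its version, the probe set definition and the genome build the sources used here give nothing, so no coordinates are printed. Groups and replicate numbers came from the sample titles. Of 27826 loci, 27241 matched the RefSeq gene table of assembly TAIR10.1, used for names only. Gene sequences were not used here.

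The values were used as deposited, without a filter or a pseudocount. The groups were compared by limma (version 3.58.1, R version 4.3.3) with a two-sided moderated test and no covariates, on 2 residual and 2.55 prior degrees of freedom, fitted on all probe sets with Benjamini-Hochberg adjustment. Errors beside changes are moderated standard errors. The fit was tested on simulated data. Pairs of genes were compared by an exact permutation test with scipy 1.17.1, and figures were drawn with matplotlib 3.10.9.

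The members, lists and tests were chosen with earlier results of these data known. Named genes were the 8 members, RAP2.12, ADH1, PDC1, up to 4 called genes of each list with the largest change (or the gene with the smallest p), and the 3 nearest profiles of PGB1 and of NIA1. Any further gene is marked in the text as named after its values were seen. The alternatives changed the model (a replicate block, array weights, an intensity trend, robust eBayes), the values (quantile normalization again, centring on the median, removal of probe sets with a mean level in the lowest 25%), the arrays (each left out in turn) or the threshold (0.01 and 0.10).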

Additional observations from a re-analysis of the deposited data

How the results depend on the processing

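PGB1 and NIA1 passed in 9 of 11 alternative fits each, at changes of 3.45 to 3.68 and 2.71 to 2.95, and did not pass without either Col-0 array. With each array left out, the genes called higher among the 8 ranged from 0 to 2, among the 84 pathway genes from 0 to 2, among the 9 low-oxygen genes from 0 to 8, and among all probe sets from 0 to 286, with 0 to 29 lower. These fits have 1 residual degree of freedom, and the lone array of a group is assumed to vary like the others. The changes of NIR1 then ranged from -0.069 to 0.16 and those of NRT2.1 from -0.34 to 0.016, so both changed sign. With the intensity trend, 5 of the 8 genes were higher and 1 lower, 2 pathway genes were higher and 2 lower, and 1040 probe sets were higher and 719 lower, so that the share of higher calls differs from that of 485 higher and 118 lower. The low-level filter removed ANR1 and NRT2.1, which left 0 pathway genes higher, called 1 lower (GLN1;4), and called 256 probe sets lower. At an adjusted p below 0.01, 1 of the 8 genes (NIA1) and 0 pathway genes were higher, with 150 probe sets higher and 10 lower. Below 0.10, PGB3 also passed, 2 pathway genes were lower, and 829 probe sets were higher and 374 lower. The cause of these differences was not tested. Replicate numbers were not shown to pair the arrays: deviations of same-numbered arrays from their group means correlated at 0.035 over probe sets. With the replicate number as a block, 433 probe sets were higher and 82 lower, and PGB1 (3.57, adjusted p = 0.0217) and NIA1 (2.83, adjusted p = 0.00779) were still called, with no other call among the 8 genes. No sample-level depth exists for arrays, and signal over background is unknown.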
